A study of Mus musculus with 2 samples.

Results

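The 10 genes described here encode proteases of stratified epithelium, inhibitors of such proteases, and members of the serpin (serine protease inhibitor) family. The proteases are the kallikrein-related serine proteases Klk5, Klk7, Klk8 and Klk10 and the membrane-bound serine protease matriptase (St14). The inhibitors are the serine protease inhibitors LEKTI (Spink5) and HAI-1 (Spint1) and the cysteine protease inhibitor cystatin M/E (Cst6). The serpins are Serpinb3a and Serpinb5 (maspin), grouped here by family only, and whether either blocks a protease was not tested. The 10 genes were chosen by gene symbol from the 32285 genes counted. All 10 had UMIs (unique molecular identifiers, each standing for 1 captured transcript) in both libraries. The libraries came from the palatal gingiva of female mice of strain C57BL/6, named C57Bl6/J in the protocol, aged 8 to 12 weeks. In 1 group, 3 µl of CpG ODN, a synthetic unmethylated DNA that stimulates TLR9, lay on the palate for 1 h under an oral appliance at 1 µg/ml. The other group received *P. gingivalis* LPS, which activates TLR2/4, at the same volume, concentration and time. The gingiva was taken 4 days after either ligand and digested with collagenase II and trypsin, and equal numbers of cells of 4 mice were combined into 1 library. The mice of a library cannot be told apart, each ligand has 1 library, and no untreated gingiva was analysed here. No test between ligands was therefore possible, ligand and library cannot be told apart, and every interval printed is a 95% interval for counting error only, without the spread between mice.

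Kallikreins are secreted as inactive precursors, activate one another by cleavage, and in skin cut the proteins that hold the outermost cells together, so that these cells are shed. LEKTI is made by the same differentiating keratinocytes and releases fragments that block kallikreins. Matriptase is a membrane protease of epithelia that starts cascades of zymogen activation, and HAI-1 is its membrane-bound inhibitor. Cystatin M/E blocks legumain and some cathepsins, and clade B serpins such as Serpinb3a are largely intracellular.

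Barcodes with 800 or more detected genes were taken as cells, 4888 in the CpG ODN library (median 11077.5 UMIs per cell) and 1277 in the LPS library (median 22680). The 2 lists of barcodes shared 5 entries, of which 1 was a kept cell in both. Of the kept cells, 3697 and 976 fell into 12 keratinocyte clusters, made without the 10 genes and the related proteases and inhibitors. Basal-like cells (1065 and 253) carried Krt5 and Krt14, and dividing-like cells (298 and 78) carried Mki67. An intermediate class (1342 and 279) had a Krt76 level between those of basal-like cells and of a Krt76/Krt10-led class (695 and 171 cells). The clusters of the latter were led by Ccl20, Cryba2 and Krt10, and each had Krt76 and Krt10 among its leading genes. Upper-like cells, led by Lor (loricrin of the cornified envelope), numbered 91 and 33 and were the deepest class (median 35754 and 78780 UMIs per cell), and the part of doublets in them was not tested. In the upper-like cells Lor stood at 4094 counts per 1000000 UMIs (CPM) in the CpG ODN library and 18433 in the LPS library, and Krt10 at 11172 and 5937, so the upper-like cells of the 2 libraries were not alike in their layer markers. The other keratinocytes were a Krt4/Krt13-led class (189 and 145 cells) and an Odam-led class (17 and 17), and gland and simple epithelium-like cells (103 and 69) were held apart from the keratinocytes.

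Levels are in CPM, the summed UMIs of a gene in a class scaled to 1000000 UMIs of that class, and of each pair of values the CpG ODN library is given first. In a 3' library 1 transcript gives at most 1 UMI whatever its length, so levels of different genes are set side by side without a correction for length. Nearly all UMIs of the 10 genes came from keratinocytes, with the lowest shares for St14, 89.7% and 86%, and the highest for Klk5, 100% in both libraries. As a measure of free RNA, fibroblast-like cells (median 3994 and 8766 UMIs) held a UMI of any 1 of the 10 genes in at most 4.38% of cells in the CpG ODN library and 7.27% in the LPS library, and a gene whose share of cells in a class is near its own share in fibroblast-like cells is not read as expressed there.

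The kallikreins showed 2 patterns over the layered classes. Klk5 and Klk7 stood under 4 CPM in every layered class below the upper-like cells. Klk8 and Klk10 were measured in every layered class and were higher in the upper-like cells. The 4 genes lie on the plus strand of chromosome 7 (GRCm38, GENCODE M21), within 70147 bases that hold 6 coding Klk genes. Klk10 is at chr7:43781035-43785410, Klk8 at chr7:43797577-43803826, Klk7 at chr7:43811294-43816359 and Klk5 at chr7:43841971-43851181. Klk8 and Klk10 overlap 2310002F09Rik on the opposite strand, which itself had 39.0 and 39.2 CPM in upper-like cells, so reads of these genes could be split where the counting did not use strand. Because the neighbours differ in pattern, the bases before their starts are shown, from RefSeq on GRCm38.p6, read on the plus strand, within 250 bases of the start and without annotated exon bases. The windows are chr7:43842068-43842268 for Klk5, which lies inside an intron of the longer GENCODE model, chr7:43811044-43811293 for Klk7, chr7:43797327-43797576 for Klk8 and chr7:43780804-43781034 for Klk10. Capitals mark matches to CCNCNCCC, the letters searched for KLF and SP factors, on either strand.
Klk5: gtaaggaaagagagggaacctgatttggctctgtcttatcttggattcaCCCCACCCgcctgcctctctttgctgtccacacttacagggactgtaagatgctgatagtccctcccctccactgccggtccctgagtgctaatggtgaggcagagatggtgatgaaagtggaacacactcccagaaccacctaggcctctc
Klk7: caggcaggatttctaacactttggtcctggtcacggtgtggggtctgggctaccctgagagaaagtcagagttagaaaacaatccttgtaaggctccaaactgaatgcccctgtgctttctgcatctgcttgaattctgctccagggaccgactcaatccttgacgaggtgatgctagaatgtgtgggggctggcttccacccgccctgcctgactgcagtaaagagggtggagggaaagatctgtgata
Klk8: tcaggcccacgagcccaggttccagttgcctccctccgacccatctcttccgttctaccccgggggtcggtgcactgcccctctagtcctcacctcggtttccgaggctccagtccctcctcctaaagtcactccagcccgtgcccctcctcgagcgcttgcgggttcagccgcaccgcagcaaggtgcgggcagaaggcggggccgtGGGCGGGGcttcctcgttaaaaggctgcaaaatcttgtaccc
Klk10: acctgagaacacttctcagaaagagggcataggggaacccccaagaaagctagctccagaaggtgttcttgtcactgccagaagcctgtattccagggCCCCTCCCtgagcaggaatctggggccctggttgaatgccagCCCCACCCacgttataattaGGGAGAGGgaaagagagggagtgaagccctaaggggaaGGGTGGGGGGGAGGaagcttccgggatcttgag
The match stood 152 bases before the start in Klk5 and 42 bases before it in Klk8. Klk10 held 5 matches between 152 and 46 bases before its start, of which the last 2 overlap, and Klk7 held none. The letters are common, since 45.9% of 32851 such windows of mouse genes hold them, and a match is no sign that a factor binds.

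Klk5, which in skin can activate itself and other kallikreins, had 0 UMIs in the 1065 and 253 basal-like cells. A count of 0 there allows up to 0.287 and 0.625 CPM (3 counts). In the intermediate class it stood at 0.191 and 0.111 CPM, from 4 UMIs and 1 UMI, and in the Krt76/Krt10-led class at 3.5 and 1.73. That class held 31.6% and 10.4% of its UMIs, and in the cluster led by Krt10 the level was 7.6 and 3.16. In upper-like cells it reached 46.5 CPM (39.3 to 54.6) in the CpG ODN library and 49.9 CPM (41.8 to 59) in the LPS library. Klk5 was thus highest in the upper-like cells of both libraries, at least 162-fold and 79.8-fold above basal-like cells with 3 counts taken for the latter. Its UMIs came from 35 of 91 cells (38.5%) and 25 of 33 cells (75.8%), and after thinning every cell to 3000 UMIs the shares were 10.1% and 14.5%.

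Klk7, a chymotrypsin-like kallikrein that cuts corneodesmosin in skin, was, of these 4 kallikreins, the one with the largest share of its UMIs in the upper-like cells. These cells held 91.4% and 98.1% of all its UMIs, against 65.4% and 87.7% for Klk5. Basal-like cells held 1 UMI of Klk7 in each library. In the Krt76/Krt10-led class there were 7 UMIs in the CpG ODN library and 0 in the LPS library. Upper-like cells stood at 63.3 CPM (54.9 to 72.7) and 136 CPM (122 to 151), which makes the step from the Krt76/Krt10-led class 186 (88.8 to 469) in the CpG ODN library. Even there Klk7 was sparse and uneven, with UMIs in 22 of 91 and 11 of 33 cells. The cell with the most held 32% and 39.9% of the UMIs, and the 3 cells with the most held 64.5% and 76.6%. Klk7 was found in 15 of the 35 upper-like cells with Klk5 (42.9%) and in 12.5% of those without in the CpG ODN library, at like depths (median 35754 and 35803.5 UMIs). The LPS library had 10 of 25 (40%) and 12.5%.

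Klk8 (neuropsin) had 58.1 and 67.3 CPM in basal-like cells, 46.7 and 45.2 in dividing-like cells, 70.5 and 84.2 in the intermediate class and 136 and 138 in the Krt76/Krt10-led class. In upper-like cells it stood at 627 and 786, and all 91 and all 33 of them held a UMI of it. The ratio to basal-like cells was 10.8 (9.85 to 11.8) and 11.7 (10.4 to 13.2). Klk10 was flatter below the top, with 70.1 and 78.1 CPM in basal-like cells, 65.6 and 57.5 in dividing-like cells, 58.5 and 58.9 in the intermediate class and 96.1 and 86.8 in the Krt76/Krt10-led class. In upper-like cells it reached 882 and 1271, which is 12.6 (11.6 to 13.7) and 16.3 (14.6 to 18.2) times the basal-like level. For both genes the largest step was the last, from the Krt76/Krt10-led to the upper-like cells, where Klk8 was higher by a factor of 4.62 (4.36 to 4.89) and 5.68 (5.3 to 6.09) and Klk10 by 9.18 (8.66 to 9.72) and 14.6 (13.6 to 15.8). Below that step the intervals of Klk10 in dividing-like and intermediate cells overlapped in both libraries, whereas those of Klk8 lay apart between dividing-like, intermediate and Krt76/Krt10-led cells. Within the Krt76/Krt10-led class Klk8 stood at 87.2 and 79.1 CPM in the cluster led by Ccl20. It was at 129 and 137 in the cluster led by Cryba2 and 190 and 189 in the one led by Krt10. In the LPS library the interval of the Ccl20-led cluster (69.7 to 89.5) overlapped that of the intermediate class (78.3 to 90.4).

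**Figure D1:**
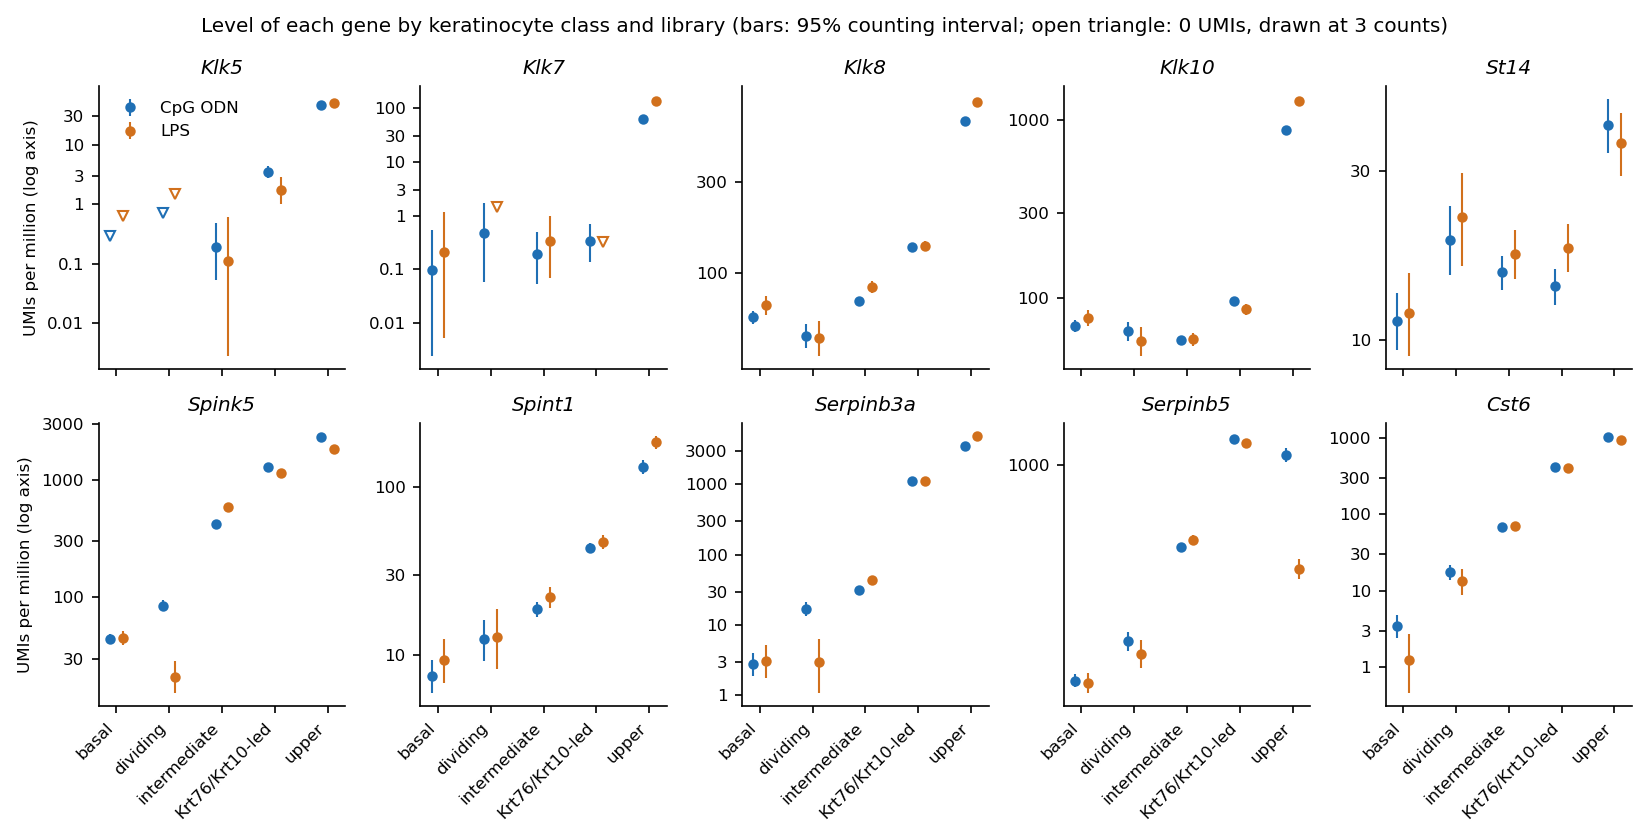
Level of each of the 10 genes (y axes, CPM, log scale) in 5 keratinocyte classes (x axes) in the CpG ODN library (blue) and the LPS library (orange). Bars are 95% counting intervals, and open triangles mark 0 UMIs, drawn at the level of 3 counts. Klk5 and Klk7 pass 10 CPM only in upper-like cells, Spink5, Cst6, Serpinb3a and Spint1 are higher from class to class from the dividing-like cells on, and Serpinb5 is highest in the Krt76/Krt10-led class.

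Spink5 on chromosome 18 (chr18:43963235-44022501, plus strand) was already above each of the 4 kallikreins in the intermediate and Krt76/Krt10-led classes. It stood at 44 and 45.2 CPM in basal-like cells, 419 and 589 in the intermediate class and 1282 and 1140.3 in the Krt76/Krt10-led class. The upper-like level was 2305 and 1829, 52.4 (47.7 to 57.7) and 40.5 (35.3 to 46.6) times that of basal-like cells. The last step was small, 1.8 (1.75 to 1.85) and 1.6 (1.55 to 1.66). Within basal-like cells Spink5 differed between the clusters, at 18.8 and 10.7 CPM in the cluster led by Pappa and 69.3 and 80.5 in the cluster led by Igfbp3. Within the intermediate class, the cluster led by Selenbp1 stood at 781 and 1010.5, while the other two had 233 and 190.4 in the one and 132 and 214 in the other. Krt76 stood at 21195 CPM in the former and at 6821 and 7137 in the other two. A UMI of Spink5 was found in 156 of 1065 cells (14.6%) and 54 of 253 cells (21.3%) of the basal-like class against 674 of 695 cells (97%) and 168 of 171 cells (98.2%) of the Krt76/Krt10-led class. Thinned to 3000 UMIs per cell, these shares were 6.72% and 7.58% against 88.9% and 85.6%.

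Cst6 (chr19:5344705-5349574, minus strand) was higher in each class than in the one before. Its levels were 3.45 and 1.25 CPM in basal-like cells, 17.5 and 13.3 in dividing-like cells, 67.8 and 70.8 in the intermediate class, 420.2 and 408 in the Krt76/Krt10-led class and 1027 and 938 in upper-like cells. The 2 libraries kept the same order of classes, and the ratio of upper-like to basal-like cells was 298 (215 to 426) and 751 (344 to 2047), the latter resting on 6 UMIs in basal-like cells. Basal-like cells held a Cst6 UMI in 2.82% and 2.37% of cells and fibroblast-like cells in 2.79% and 3.64%, so the basal-like level is not told apart from free RNA and these ratios are not exact folds. Within the Krt76/Krt10-led class, Cst6 differed by cluster, from 191 and 169 CPM in the cluster led by Ccl20 through 432 and 451 in the cluster led by Cryba2 to 653 and 583 in the cluster led by Krt10.

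The 2 serpins, which lie within the same serpin cluster of chromosome 1, differed in the upper-like cells. Serpinb3a (chr1:107045587-107052303, minus strand), an ortholog of the human squamous cell carcinoma antigens, had 2.78 and 3.12 CPM in basal-like cells and 32 and 43.4 in the intermediate class. In the Krt76/Krt10-led class it stood at 1105 and 1104 and in upper-like cells at 3506 and 4807, the highest level of the 10 genes in any class. Over the same 3 clusters of the Krt76/Krt10-led class it stood at 234 and 224, 883 and 1000.5 and 2130.1 and 1909 CPM. The ratio to basal-like cells was 1263 (879 to 1887) and 1539 (933 to 2751). As basal-like cells held a UMI of it in 2.72% and 5.53% of cells, beside 1.59% and 3.64% of the shallower fibroblast-like cells, these ratios are not exact folds either. Reads could be split between Serpinb3a and its near copies Serpinb3b, Serpinb3c and Serpinb3d, so its level is uncertain to that extent. Serpinb5 (chr1:106861173-106883348, plus strand) was already at 348 and 344 CPM in basal-like cells and stood at 422 and 397 in dividing-like cells, 669 and 692 in the intermediate class and 1137 and 1113 in the Krt76/Krt10-led class. In upper-like cells it was 1049 and 600.2, lower than in the Krt76/Krt10-led class by a ratio of 0.923 (0.89 to 0.957) and 0.539 (0.511 to 0.568). It was the only one of the 10 genes whose upper-like level was below that of the Krt76/Krt10-led class, in both libraries. It was also the most widely detected of the 10, with a UMI in 91.4% and 97.2% of basal-like cells (62% and 59.8% when thinned). The bases before the 2 starts are shown because the 2 serpins differ in this pattern, at chr1:107052304-107052553 (read on the minus strand) and chr1:106860925-106861172 (plus strand). Capitals mark matches on either strand to TATAAA, to TGANTCA for AP-1, to TTNNGNAA for C/EBP and to CCNCNCCC.
Serpinb3a: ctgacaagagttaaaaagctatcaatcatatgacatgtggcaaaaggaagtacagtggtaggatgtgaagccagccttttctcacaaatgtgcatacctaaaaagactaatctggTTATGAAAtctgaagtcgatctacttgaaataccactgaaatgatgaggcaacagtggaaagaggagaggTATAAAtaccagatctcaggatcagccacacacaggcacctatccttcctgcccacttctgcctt
Serpinb5: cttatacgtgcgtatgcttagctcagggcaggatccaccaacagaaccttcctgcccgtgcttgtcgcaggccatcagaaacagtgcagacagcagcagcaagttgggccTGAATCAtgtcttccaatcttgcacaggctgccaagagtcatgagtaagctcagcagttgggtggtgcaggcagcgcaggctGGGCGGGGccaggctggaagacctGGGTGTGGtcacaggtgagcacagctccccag
Serpinb3a held TATAAA 65 bases before its start and a C/EBP match at 135 bases. Serpinb5 held an AP-1 match at 140 bases and CCNCNCCC at 58 and 34 bases. Over all 32851 windows, 12.4% hold TATAAA, 6.75% TGANTCA and 36.8% TTNNGNAA. The grainyhead letters AACCGGTT (0.116% of windows) were in none of the 7 windows found for the 10 genes.

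St14 and Spint1 both had their highest level in the Odam-led class. St14 (chr9:31089402-31131853, minus strand) had 11.3 and 11.9 CPM in basal-like cells, 15.5 and 17.5 in the intermediate class, 14.1 and 18.2 in the Krt76/Krt10-led class and 40.3 and 35.8 in upper-like cells. The ratio of upper-like to basal-like cells was 3.56 (2.76 to 4.61) and 3.02 (2.15 to 4.26). Spint1 (chr2:119237362-119249527, plus strand) had 7.56 and 9.37 CPM in basal-like cells, 18.8 and 22.1 in the intermediate class, 43.7 and 46.9 in the Krt76/Krt10-led class and 131 and 184 in upper-like cells, a ratio of 17.3 (13.6 to 22.3) and 19.6 (14.4 to 27.2). The Odam-led class, 17 cells in each library and named for a secreted protein of the epithelium at the tooth, had the most of both. St14 stood there at 105 and 128 CPM and Spint1 at 358 and 399.9, while Klk5 had 0 UMIs in these cells and Klk8 4.21 and 10.2 CPM. The largest share of these UMIs in 1 cell was 32% and 26.7% for St14 and 30.6% and 24.7% for Spint1. In gland and simple epithelium-like cells St14 had 59.8 and 63.7 and Spint1 62.1 and 66.2 CPM.

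The Krt4/Krt13-led class, 3.87% of the kept cells in the CpG ODN library and 11.4% in the LPS library, carried LEKTI, both serpins, Klk8 and Klk10, with Klk5 and Klk7 at or near 0. Spink5 stood there at 441 and 220.1 CPM, Serpinb3a at 779 and 659 and Serpinb5 at 624 and 585. A UMI was found in 42.3% and 48.3% of cells for Spink5 and 31.7% and 30.3% for Serpinb3a, beside 92.1% and 98.6% for Serpinb5. In the LPS library 1 cell held 15.4% of the Serpinb3a UMIs of this class. Klk8 had 142 and 104 CPM and Klk10 103 and 70.5, while Klk5 had 0.809 and 0.363 and Klk7 0 and 0. Kallikrein UMIs per Spink5 UMI were 0.557 (0.513 to 0.605) and 0.793 (0.728 to 0.864).

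Over all genes with at least 20 UMIs in the upper-like and basal-like cells together in each library, 10.9% of 10082 were at least 2-fold higher in upper-like than in basal-like cells in both libraries, and 45% were at least 2-fold lower. Of the 10 genes, all passed the minimum, 9 were higher and 0 lower, with Serpinb5 just outside at 3.01 (2.88 to 3.16) and 1.74 (1.63 to 1.87). Klk5 and Klk7 in both libraries, and Cst6 and Serpinb3a in the LPS library, had fewer than 20 UMIs in basal-like cells, so they passed the minimum through the upper-like cells and could differ in that direction only. The median log2 ratio of the 9 genes other than Klk5 was 4.12 and 4.29, and 4.91 and 4.82 over all 10 with Klk5 at 3 basal-like counts, beside −0.92 and −0.99 over all genes. These medians are a description of the chosen genes. Ratios taken relative to that median of all genes put 2184 genes higher and 2417 lower, against 1102 and 4541 as counted, and then all 10 of these genes were past 2-fold.

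The ratio of UMIs of the 4 kallikreins to those of Spink5 was above 1 in basal-like and dividing-like cells. Of the 5 layered classes it was lowest in the Krt76/Krt10-led class. Taken as UMIs of Klk5, Klk7, Klk8 and Klk10 per UMI of Spink5 in the same cells, it was 2.91 (2.62 to 3.25) in basal-like cells of the CpG ODN library and 3.22 (2.76 to 3.77) in those of the LPS library. In dividing-like cells it was 1.33 (1.15 to 1.53) and 4.86 (3.49 to 6.92). It was 0.309 (0.296 to 0.322) and 0.244 (0.229 to 0.259) in the intermediate class and 0.184 (0.178 to 0.19) and 0.199 (0.19 to 0.209) in the Krt76/Krt10-led class. In upper-like cells it was 0.702 (0.677 to 0.727) and 1.23 (1.18 to 1.27), above the Krt76/Krt10-led class in both libraries. The basal-like kallikrein UMIs were those of Klk8 and Klk10, since Klk5 and Klk7 together gave 1 UMI in each library. In upper-like cells too most were of Klk8 and Klk10, as Klk5 and Klk7 gave 352 of 5186 and 503 of 6072. Whether LEKTI blocks Klk8 or Klk10 was not tested. Klk5 and Klk7 alone came to 0.00299 (0.00237 to 0.00373) and 0.00152 (0.000867 to 0.00247) UMIs per Spink5 UMI in the Krt76/Krt10-led class and 0.0476 (0.0427 to 0.053) and 0.102 (0.0925 to 0.111) in upper-like cells. St14 UMIs per Spint1 UMI went from 1.49 (1.11 to 2.01) and 1.27 (0.842 to 1.92) in basal-like cells to 0.822 (0.708 to 0.955) and 0.79 (0.637 to 0.978) in the intermediate class, 0.324 (0.283 to 0.37) and 0.387 (0.322 to 0.464) in the Krt76/Krt10-led class and 0.307 (0.25 to 0.375) and 0.195 (0.155 to 0.243) in upper-like cells. The last 2 intervals overlapped in the CpG ODN library, where the Odam-led class was at 0.294 (0.18 to 0.464). These are ratios of captured transcripts and say nothing of protein or of active enzyme. The kallikrein ratio leaves out the other Klk genes, among them Klk14 with 2933 and 3807 UMIs in upper-like cells.

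**Figure D2:**
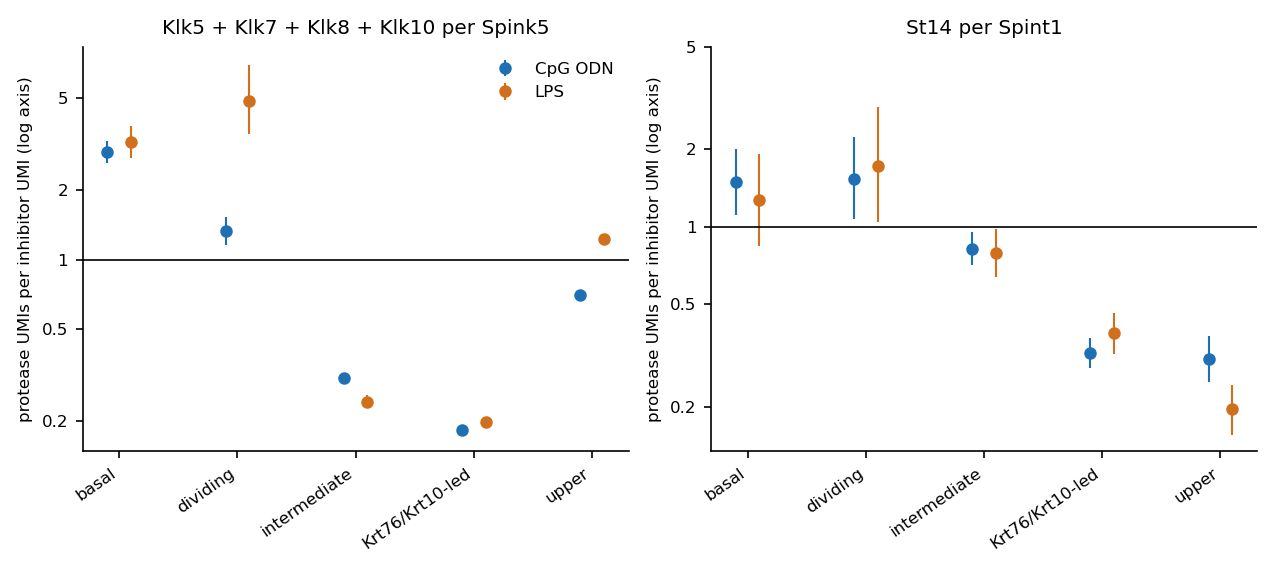
UMIs of protease per UMI of inhibitor in the same cells (y axes, log scale) in 5 keratinocyte classes (x axes), for the 4 kallikreins per Spink5 (left) and St14 per Spint1 (right), in the CpG ODN library (blue) and the LPS library (orange), with 95% counting intervals. Of the 5 classes the kallikrein ratio is lowest in the Krt76/Krt10-led class, at 0.184 and 0.199, and is higher again in upper-like cells, at 0.702 and 1.23.

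Between the ligands, 2 of the 10 genes passed 1.5-fold over all keratinocytes, both higher in the LPS library. Klk7 stood at 3.44 and 11 CPM, a ratio of CpG ODN over LPS of 0.314 (0.264 to 0.372), and Spint1 at 33.3 and 50.3, a ratio of 0.662 (0.621 to 0.706). Over all 13662 genes with at least 20 UMIs, 7.08% were at least 1.5-fold higher in the LPS library and 3.21% in the CpG ODN library. Of the rest, Klk10 lay closest to the limit, at 0.702 (0.678 to 0.727), and Cst6 closest to 1, at 0.993 (0.966 to 1.02). Spint1 stood just past the limit and, with both libraries given the same mix of keratinocyte classes, was at 0.862. Odam-led cells held 3.8% and 12.9% of its UMIs, upper-like cells 18.8% and 27.3% and the Krt76/Krt10-led class 40.2% and 23.8%.

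Within the upper-like cells the 2 genes past 1.5-fold went in opposite directions. Serpinb5 stood at 1049 and 600.2 CPM, 1.75 (1.65 to 1.86) as CpG ODN over LPS, and Klk7 at 63.3 and 136, a ratio of 0.466 (0.391 to 0.555). Of 7649 genes, 14.2% were higher in the CpG ODN library and 11.1% in the LPS library, more than in any other class. Klk10 at 0.693 (0.66 to 0.729), Spint1 at 0.714 (0.625 to 0.815), Serpinb3a at 0.729 (0.711 to 0.748) and Klk8 at 0.798 (0.75 to 0.849) were lower in the CpG ODN library by less than that limit. Spink5 at 1.26 (1.22 to 1.31) was higher in it, and the intervals of Klk5 at 0.932 (0.734 to 1.19) and St14 at 1.12 (0.857 to 1.48) held 1. Lor, as given above, differed between the same cells by more than any of the 10 genes did. Without the cells above the 95th percentile of UMIs, Serpinb5 was at 1.18.

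Splits of the upper-like cells by their Lor level were added after these values were seen. In the 46 and 17 cells with the more Lor of their library, Klk7 stood at 118 CPM in the CpG ODN library and 208 in the LPS library, against 15.2 and 50.9 in the 45 and 16 cells with less. That is a ratio of 7.74 (5.11 to 12.2) and 4.08 (3.11 to 5.45) within a library. In the LPS library 60 of the 63 Klk7 UMIs of the cells with less Lor came from 1 cell. Serpinb5 went the other way, at 786 and 333 against 1281 and 917, a ratio of 0.613 (0.571 to 0.659) and 0.363 (0.326 to 0.404). Klk8 at 1.48 (1.36 to 1.62) and 2.06 (1.88 to 2.27) and Klk10 at 1.61 (1.49 to 1.74) and 2.93 (2.71 to 3.18) were also higher in the cells with more Lor, and Spink5, at 0.959 (0.915 to 1.0) and 0.779 (0.736 to 0.823), was not. Split instead at the median of all 124 upper-like cells, 710.7 CPM of Lor, 53 and 9 cells fell below and 38 and 24 at or above. Klk7 as CpG ODN over LPS was then 2.62 (0.803 to 13.5) below and 0.831 (0.69 to 0.997) at or above, and Serpinb5 1.07 (0.985 to 1.17) and 1.66 (1.51 to 1.82). Klk7 was past 1.5-fold toward the LPS library on neither side of the split. Its ratio below the median rested on 26 and 3 UMIs. The LPS cell with 60 Klk7 UMIs fell at or above the median here, so the Klk7 ratios depend on the side of that 1 cell. Serpinb5 was past 1.5-fold only among the cells with more Lor, which themselves held 10380.3 and 23545 CPM of Lor.

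**Figure D3:**
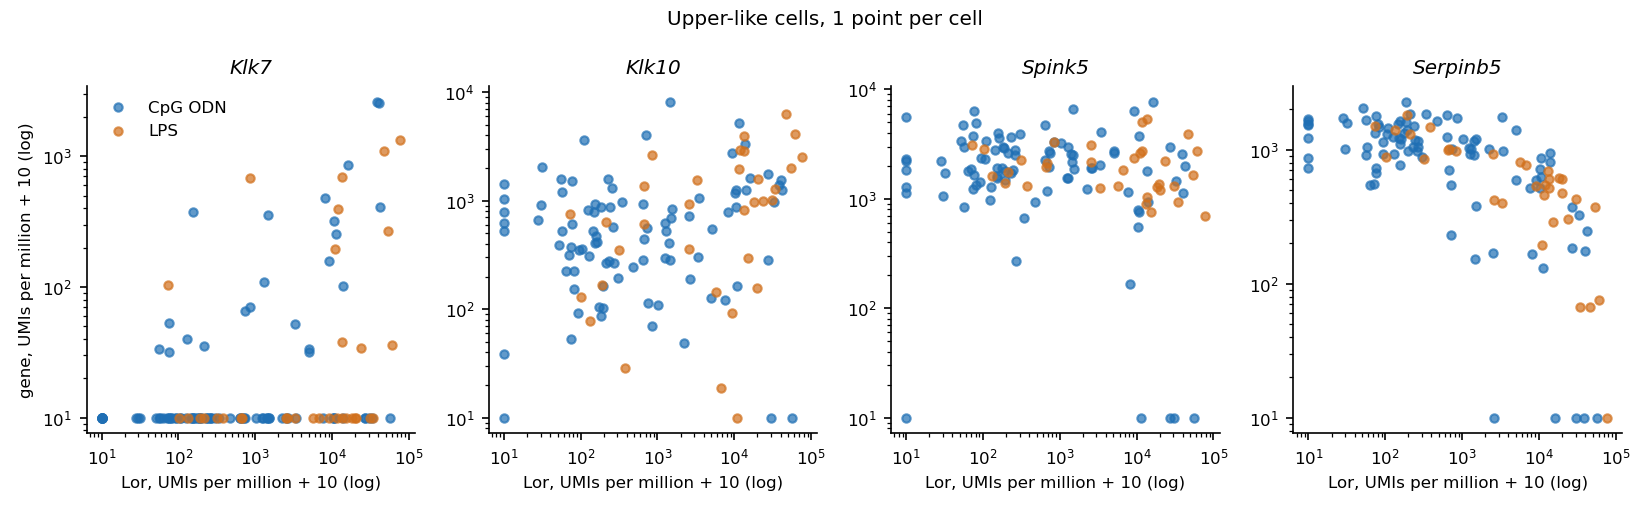
Each point is 1 upper-like cell of the CpG ODN (blue, 91 cells) or LPS library (orange, 33 cells). The x axes give its Lor and the y axes its Klk7, Klk10, Spink5 or Serpinb5, all as CPM plus 10 on log scales, so that points at 10 hold 0 UMIs. Most but not all cells with much Klk7 lie to the right, and Serpinb5 falls off toward the right. A larger share of the orange than of the blue cells lies to the right.

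In each layered class below the upper-like cells, 0 to 2 of the 10 genes passed 1.5-fold between ligands, beside 2 in the upper-like cells. In basal-like cells only Cst6 passed 1.5-fold, at 2.76 (1.15 to 8.01), of 8 genes with enough UMIs, where 3.75% of 11134 genes were higher in the CpG ODN library and 5.07% in the LPS library. It rested on 36 and 6 UMIs in 2.82% and 2.37% of cells, near its shares in fibroblast-like cells (2.79% and 3.64%), and is not read as a difference in expression. In the intermediate class 0 of 8 passed, beside 3.76% and 4.24% of 11503 genes, and Spink5 came nearest at 0.712 (0.688 to 0.737), from 419 and 589 CPM. In the Krt76/Krt10-led class only Klk5 of 9 genes passed, at 2.02 (1.16 to 3.72) from 72 and 16 UMIs in 6.04% and 7.02% of cells (0% of fibroblast-like cells), beside 5.01% and 3.84% of 10880 genes. The other 8 lay between 0.778 (St14) and 1.12 (Spink5), and Serpinb3a, with over 10000 UMIs in each library, was at 1.0 (0.977 to 1.02). In dividing-like cells 2 of 8 genes passed, both higher in the CpG ODN library, beside 6.14% of 10093 genes in that direction and 7.38% in the other. Serpinb3a was at 5.76 (2.52 to 16.2), and 85.9% of its UMIs in the CpG ODN library were in 1 cell, with a UMI in 3.69% and 5.13% of cells. Without that cell it was at 1.61, and without the cells above the 95th percentile of UMIs at 0.820. Spink5 was at 4.02 (2.92 to 5.65), with UMIs in 56 of 298 and 20 of 78 cells and 18.3% of the CpG ODN library's UMIs in 1 cell. With classes set by a marker score per cell it was at 1.31, and Klk5 of the Krt76/Krt10-led class was at 1.00 without cells above the 95th percentile. In the Krt4/Krt13-led class, outside this count, Spink5 was at 2.0 (1.86 to 2.16) and Cst6 at 1.61 (1.44 to 1.78). No other of the 10 with enough UMIs passed there, and the share over all genes was not counted.

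**Figure D4:**
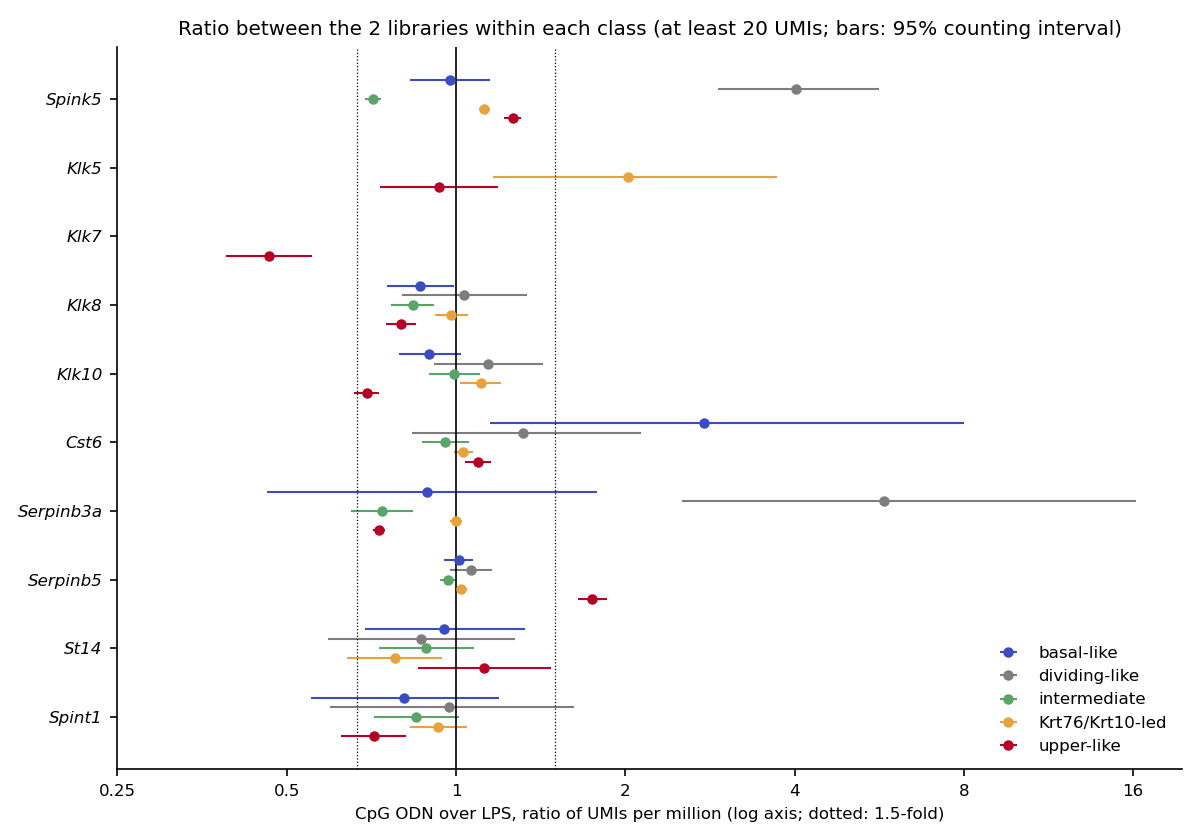
Ratio of the CpG ODN library over the LPS library (x axis, log scale, in CPM) for each of the 10 genes (y axis) within 5 keratinocyte classes (colours), where a gene had at least 20 UMIs; bars are 95% counting intervals and dotted lines mark 1.5-fold. Most points lie between the dotted lines, with Klk7 and Serpinb5 of the upper-like cells (dark red) beyond them on opposite sides.

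Of 69 related genes listed, 68 were counted and 51 had at least 20 UMIs over upper-like and basal-like cells in each library; 35 of these were at least 2-fold higher in upper-like cells in both libraries and 10 lower. Of the 35, 20 had fewer than 20 UMIs in basal-like cells of 1 library or both and passed the minimum through the upper-like cells. Among the other kallikreins all 6 with enough UMIs were higher. Klk14, a trypsin-like activator of other kallikreins and the first Klk gene of the run on chromosome 7, stood at 915 and 1406 CPM in upper-like cells against 0.287 and 1.04 in basal-like cells. Klk12 stood at 315 and 282 CPM in upper-like cells against 0.574 and 0.416 in basal-like cells, and Klk6 had 30 and 20 UMIs in upper-like cells and 0 in basal-like cells. In upper-like cells Klk14 had more UMIs than any of Klk5, Klk7, Klk8 and Klk10 in both libraries.

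Of 10 other serine proteases with enough UMIs, 7 were higher and 3 lower in upper-like cells. Prss27 (a membrane-linked tryptase-like protease) stood at 49.9 and 109 CPM in upper-like cells against 0.479 and 0.208 in basal-like cells, and the membrane protease Tmprss4 at 35.3 and 67.6 CPM in upper-like cells against 0.191 and 0.416 in basal-like cells. Htra1, a secreted protease, was among the 3 that were lower, at 1.56 and 0 CPM in upper-like cells against 79.2 and 112 in basal-like cells. Of 6 cathepsins and legumain (Lgmn), 1 was higher and 3 were lower, shares near those of all genes. Lgmn itself stood at 4.06 and 8.13 CPM in upper-like cells against 10.2 and 12.1 in basal-like cells and is named after its values were seen. The lysosomal carboxypeptidase Ctsz stood at 0.312 and 0.369 CPM in upper-like cells against 35.7 and 40.8 in basal-like cells, the dipeptidyl peptidase Ctsc at 5.62 and 1.48 CPM in upper-like cells against 36.3 and 44.1 in basal-like cells, and the aspartic protease Ctsd at 539.9 and 732 CPM in upper-like cells against 224 and 237 in basal-like cells.

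Among other serine protease inhibitors 11 were higher and 3 lower of 15. Slpi, an elastase inhibitor of mucosal secretions, stood at 5961 and 12008 CPM in upper-like cells against 4.59 and 5.0 in basal-like cells. Serpinb12 stood at 2907 and 4307 CPM in upper-like cells against 4.12 and 2.92 in basal-like cells, and Serpinb3c, a near copy of Serpinb3a, at 84.9 and 408 CPM in upper-like cells against 0 and 0.208 in basal-like cells. Of 4 other cystatins 2 were higher: Csta1 stood at 245 and 643 CPM in upper-like cells against 18.6 and 27.7 in basal-like cells and Stfa3 at 6.24 and 20.3 CPM in upper-like cells against 1.34 and 4.16 in basal-like cells. Of 9 substrates, envelope-linked genes and the protease-activated receptor F2rl1, 8 were higher. F2rl1, which kallikreins can cleave and which is named here after its values were seen, was lower, at 2.81 and 2.22 CPM in upper-like cells against 8.33 and 11.9 in basal-like cells. The desmosomal cadherin Dsc1 stood at 407 and 294 CPM in upper-like cells against 0.479 and 0 in basal-like cells, filaggrin (Flg) at 849.7 and 543 CPM in upper-like cells against 0.479 and 0.625 in basal-like cells, and corneodesmosin (Cdsn), a protein cut by KLK5 and KLK7 in skin, at 124 and 278 CPM in upper-like cells against 0.287 and 0.208 in basal-like cells. In the Krt76/Krt10-led class Cdsn had 0.146 and 0.433 CPM, where Dsc1 already had 130.0 and 138.

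**Figure D5:**
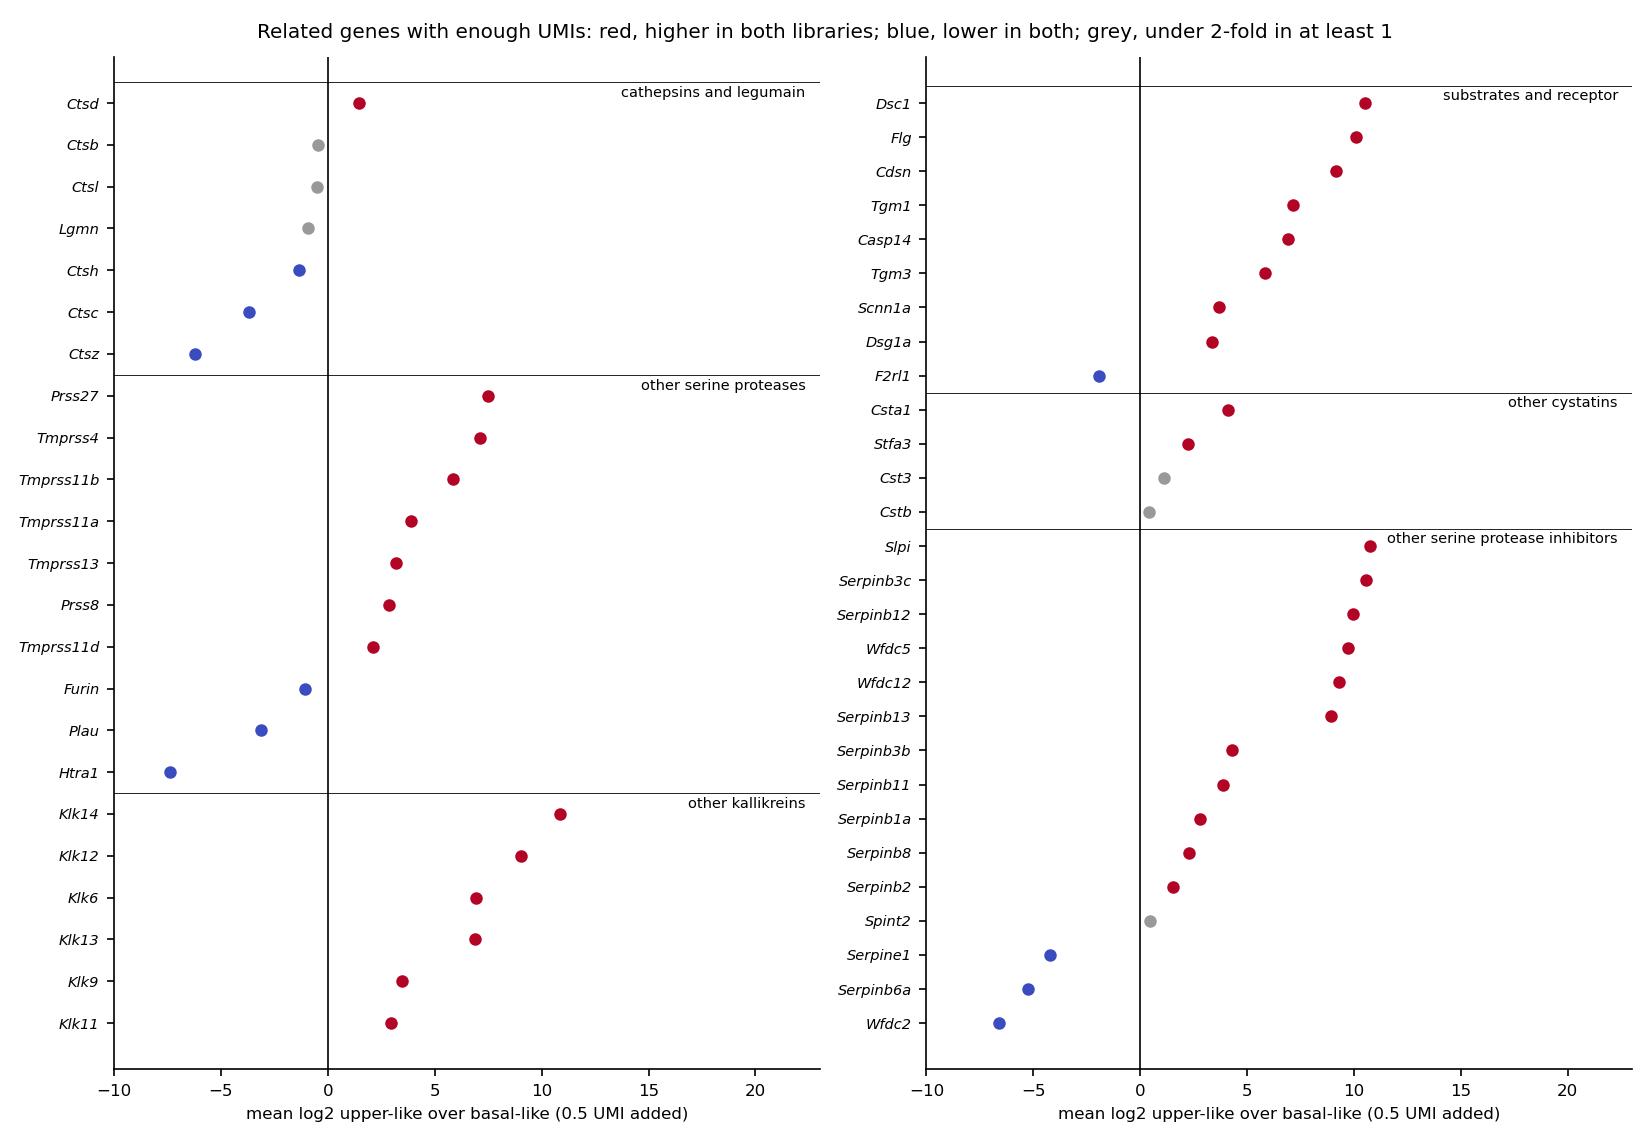
Mean over the 2 libraries of the log2 ratio of upper-like over basal-like cells (x axes, with 0.5 UMI added to each count) for the 51 related genes with enough UMIs (y axes), by group. Red points were at least 2-fold higher in both libraries, blue points lower and grey points neither; all 6 other kallikreins are red, and of the 7 cathepsins and legumain 3 are blue.

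Over the 7 epithelial classes of the 2 libraries (14 points, which share libraries and depth), the levels on the log2(CPM + 10) scale showed which of the 10 genes were most alike. Klk5 and Klk7 (r = 0.973), Klk5 and Klk10 (r = 0.952), Klk7 and Klk10 (r = 0.923) and Klk8 and Klk10 (r = 0.902) were close among the kallikreins. Cst6 was close to Serpinb3a (r = 0.956) and Spink5 (r = 0.906), St14 to Spint1 (r = 0.899), and St14 and Serpinb5 were furthest apart (r = −0.475). These correlations describe the classes and carry no test. Klk5 and Klk7 had at most 4.21 CPM in the other classes than upper-like, so r for these genes rests mostly on the upper-like points. Among 10273 other genes with at least 200 UMIs in these classes, those most like Klk7 were Lce3a (r = 0.996), Cdsn (r = 0.993) and Lce3f (r = 0.992). Those most like Klk5 were Qpct (r = 0.994), Rptn (r = 0.993) and Il33 (r = 0.993), and those most like Klk10 were Atp6v1c2 (r = 0.965), Il33 (r = 0.964) and Rnf225 (r = 0.963). Cdsn is the corneodesmosin given above, and Il33 is an alarmin of epithelia. Klk8 was most like Rhobtb1 (r = 0.970), Ccdc9b (r = 0.969) and Hspb1 (r = 0.968). Spink5 was most like Sdr16c5 (r = 0.965), Stx11 (r = 0.959) and Metrnl (r = 0.957), and Cst6 most like Smim5 (r = 0.992), Rbp2 (r = 0.991) and Psapl1 (r = 0.991). For the serpins the lists were Gsdmc (r = 0.989), Elovl4 (r = 0.988) and Gdpd1 (r = 0.982) for Serpinb3a and Eppk1 (r = 0.966), Gpr155 (r = 0.963) and Arhgap26 (r = 0.961) for Serpinb5. St14 was most like Il1rn (r = 0.981), Nsdhl (r = 0.979) and Mxd1 (r = 0.975), and Spint1 most like Il1f9 (r = 0.990), Slc9a3r1 (r = 0.988) and Epha2 (r = 0.978). Il1rn and Il1f9 are both members of the interleukin-1 family.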

How the data were processed

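The authors deposited, for each library, raw counts of UMIs per gene and barcode from Cell Ranger 4.0.0 (per the file headers), 72173148 UMIs over 6219 barcodes (CpG ODN) and 38656738 over 2016 (LPS); their notes also name Seurat. The genome build and annotation behind the counts are not given in the sources used here, and coordinates were taken by gene identifier from GENCODE M21 (GRCm38), which matched all 10 genes. RefSeq windows were found for 7 of them.

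Barcodes with fewer than 800 detected genes were left out, 1331 and 739; doublets were not removed. Counts were scaled to 10000 per cell, log-transformed, reduced to 30 components from 2000 variable genes and clustered (scanpy 1.11.5, leidenalg 0.10.2, 15 neighbours, resolution 1) into 25 clusters, without 78 genes (the 10 and their relatives). Clusters were named from marker lists by a rule set after the data were seen: at least 3 markers and a mean log2 score of at least 1. Clusters nearest the basal or spinous list that fell short were called intermediate. The 3 clusters that met both limits for the spinous list, apart from the Krt4/Krt13-led one, are named by Krt76 and Krt10. Of these, the cluster led by Ccl20 had more leading genes from the upper list (2) than from the spinous list (1). 2 clusters (Ighg2b-led and Cd207-led) were set aside. Summed UMIs per class were scaled to 1000000, with exact Poisson intervals for levels, exact binomial intervals for ratios and Clopper-Pearson intervals for shares (scipy 1.17.1), all for counting error only. Genes were counted as different at 2-fold (layers, both libraries) or 1.5-fold (ligands) with at least 20 UMIs. The related genes named are up to 3 per group with the largest mean log2 ratio among those past 2-fold; the like genes are the 3 with the highest r. The scripts were tested on simulated data. The 10 genes and all lists were chosen with earlier results of these data known. Alternatives changed 1 choice at a time (cell filter, resolution, classes by marker score, scaling, UMI minimum and fold).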

Additional observations from a re-analysis of the deposited data

Results flagged for a closer look

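The ratio of CpG ODN over LPS of 4 genes lay on opposite sides of 1 in different epithelial classes, by at least 1.25-fold each way and with counting intervals that did not hold 1. The difference between classes was not tested, since each ligand has 1 library. Spink5 was at 4.02 in dividing-like cells, 2.0 in the Krt4/Krt13-led class and 1.26 in upper-like cells, but at 0.712 in the intermediate class and 0.410 in the Odam-led class, where 57.1% of the LPS library's UMIs came from 1 of 17 cells. Klk8 was at 1.37 in the Krt4/Krt13-led class and 0.798 in upper-like cells. Klk10 was at 1.46 in the Krt4/Krt13-led class and 3.03 in the Odam-led class (11 and 9 UMIs), against 0.693 in upper-like cells. Serpinb3a was at 5.76 in dividing-like cells, against 0.739 in the intermediate class and 0.729 in upper-like cells.

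Barcodes under 800 detected genes, which entered no comparison, held 822 UMIs of the 10 genes among 1615089 in the CpG ODN library and 373 among 1502163 in the LPS library. Spink5 and Serpinb3a made up the most of them, with 198 and 192 UMIs in the former and 109 each in the latter.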

How the results depend on the processing

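No paired analysis was possible because there is 1 library per ligand, and for the same reason no replicate could be left out. The number of the 10 genes at least 2-fold higher or lower in upper-like cells was 9 and ranged from 8 to 10. For the related genes it was 45 (35 higher and 10 lower) and ranged from 39 to 46. Of 501 alternative values of 90 single values, 305 stayed within the counting interval, 193 moved outside it and 3 reversed: Serpinb3a in dividing-like cells to 0.223 with layers set by a marker score per cell and to 0.820 without cells above the 95th percentile of UMIs, and Klk7 in upper-like cells to 2.62 below the median of Lor, a split chosen after seeing the data. The value of 2.62 rested on 26 and 3 UMIs. The cause of these changes was not tested. Of 228 alternative values of a ratio past its fold, 207 stayed past it, among them 149 of the 150 of upper-like over basal-like cells; St14 in the LPS library was 1.72 by marker score. Over all genes, 2954 were lower in upper-like cells by marker score, against 4541.

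The count of 2 genes between ligands over all keratinocytes was 1 with the mean of each cell's level, without keratin, mitochondrial, ribosomal protein and hemoglobin genes in the total, relative to the median ratio, at 2-fold, and with the same mix of classes in both libraries (added after seeing the data), and 3 at resolution 0.5, where Klk10 passed; where 1 was left, it was Klk7. By class the count was 6 and ranged from 4 to 9. Serpinb5 in upper-like cells was 1.33 at resolution 0.5 and by marker score, 1.49 as the mean of cells and 1.18 without cells above the 95th percentile; Klk7 there was 0.673 as the mean of cells. Spink5 in dividing-like cells was 1.31 by marker score, and Klk5 in the Krt76/Krt10-led class 1.00 without cells above the 95th percentile.

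Kallikrein UMIs per Spink5 UMI in upper-like cells, 0.702 and 1.23, were 0.427 and 0.782 at resolution 0.5, 0.581 and 0.965 by marker score, 0.746 and 1.13 as the mean of cells, and 0.751 and 1.35 without cells above the 95th percentile, with the LPS library higher each time. The 33 upper-like cells of the LPS library, and 1331 and 739 shallow barcodes left out, limit the precision.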

Other observations

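Outside the epithelium, T cell-like cells held UMIs of Klk8, a pattern chosen after the values were seen. All 85 and 27 of them held 39 and 14 UMIs of Klk8, 52 and 18 of Serpinb5 and 24 and 12 of Spink5, before a limit on Krt14 that was also set after the values were seen. Among T cell-like cells with at most 500 CPM of Krt14, 27 of 74 (36.5%, 25.6 to 48.5) held a UMI of Klk8 in the CpG ODN library and 8 of 26 (30.8%, 14.3 to 51.8) in the LPS library. The same cells held 0 UMIs of Serpinb5, the most widely detected of the 10 genes in keratinocytes, and 0 of Klk10, and 32 of the 33 and 14 of the 16 UMIs of the 10 genes in them were of Klk8. Klk8 UMIs were in 0 of 235 and 0 of 67 B cell-like cells (median 2193 and 3207 UMIs, against 2801.5 and 5089 in the T cell-like cells) and in 1 of 226 and 0 of 51 fibroblast-like cells. Endothelial-like cells had 5 of 46 and 4 of 24. The Klk8 level over all T cell-like cells was 114 CPM (81.3 to 156) and 80.1 CPM (43.8 to 134), and in basal-like cells 58.1 and 67.3.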
